A study of Mus musculus with 2 samples.

Results

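Splenic natural killer (NK) cells that carried transcripts of the Nr4a and Egr families are described here. NK cells are innate lymphocytes that kill infected or transformed cells. They were sorted by flow cytometry from the spleens of control mice and of mice under dietary restriction (DR), and profiled by droplet sequencing of transcript 3' ends. There was 1 library of each kind, so no difference between them had a replicate check, and no p-value could be computed. The labels give no strain, age, sex, number or pooling of the mice, no length or degree of the restriction, and no sorting gate. A cell barcode entered the gate with at least 500 genes and at most 10% of its unique molecular identifiers (UMIs) from mitochondrial genes. It also needed a UMI of Ncr1 or Klrb1c, which encode the NK receptors NKp46 and NK1.1, and no UMI of Cd3e, Cd79a, Ms4a1 or Csf1r, markers of T cells, B cells and myeloid cells. Of 11989 barcodes in both libraries, 10026 passed the gate. The members were the gated cells in which at least 3 of the 6 genes Nr4a1, Nr4a2, Nr4a3, Egr1, Egr2 and Egr3 were detected. There were 84 of them, 56 of 5130 gated cells in the control and 28 of 4896 in the DR library. The members were chosen by measured values of the cells they are set against, so what follows describes them and tests nothing.

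Nr4a1, Nr4a2 and Nr4a3 encode orphan nuclear receptors, and Egr1, Egr2 and Egr3 encode zinc finger transcription factors. Both families are immediate early genes: in lymphocytes they are transcribed within a short time of receptor signalling through calcium and MAP kinases, without new protein synthesis. Nr4a1 is widely used as a reporter of recent antigen receptor signalling, and Egr2, Egr3 and the Nr4a factors are known for restraining activated T cells. In NK cells, engaged activating receptors use the same routes and lead to release of the chemokines CCL3, CCL4 and XCL1, of interferon gamma, and of cytotoxic granules.

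In the mouse assembly GRCm38, with GENCODE gene models, Nr4a1 lies on chromosome 15 from 101254269 to 101274795, Nr4a2 on chromosome 2 from 57106830 to 57124003, and Nr4a3 on chromosome 4 from 48045153 to 48086447. The RefSeq promoter table of build GRCm38.p6 matched 4 of the 6 rule genes; Egr1 and Egr3 were not in it. The sequences 5' of the start sites are shown for the 3 Nr4a genes because these rule genes carry the same short motif repeatedly. They were picked for that motif, so its share among all windows, given below, is a description and no test. Capitals mark the core of the cAMP response element, TGACG on either strand (CGTCA where it is read from the other strand), and the EGR binding motif GCGNGGGCG on either strand. The positions are chr15:101266596-101266845 on the plus strand for Nr4a1, which is intronic in the longer gene model, chr2:57124004-57124253 on the minus strand for Nr4a2, and chr4:48045055-48045152 on the plus strand for Nr4a3.
Nr4a1: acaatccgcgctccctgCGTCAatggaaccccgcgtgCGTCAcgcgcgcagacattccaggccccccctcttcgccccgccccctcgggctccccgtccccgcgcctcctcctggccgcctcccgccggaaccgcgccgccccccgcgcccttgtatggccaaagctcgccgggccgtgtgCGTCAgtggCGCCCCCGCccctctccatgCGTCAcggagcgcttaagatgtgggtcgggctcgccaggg
Nr4a2: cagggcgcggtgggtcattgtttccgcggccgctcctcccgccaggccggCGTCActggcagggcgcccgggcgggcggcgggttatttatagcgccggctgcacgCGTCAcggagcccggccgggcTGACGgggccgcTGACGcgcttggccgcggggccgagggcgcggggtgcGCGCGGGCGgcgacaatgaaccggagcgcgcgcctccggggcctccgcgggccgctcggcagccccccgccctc
Nr4a3: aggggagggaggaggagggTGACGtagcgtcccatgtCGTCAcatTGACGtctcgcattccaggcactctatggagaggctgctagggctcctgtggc

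Each of the 3 Nr4a windows of 250 bases held 4 matches to the TGACG core. The Nr4a3 sequence is printed for 98 bases only, up to the first annotated exon base, and shows 3 of its 4 matches. Among all 32851 promoter windows of the same length in the table, which lists some genes several times, 17.8% held at least 1 match and 45 windows (0.137%) held at least 4. The EGR motif occurred once in the window of Nr4a1 and once in that of Nr4a2, against 4.70% of all windows with a match. None of the cores overlapped an EGR match in these windows. Other motifs were searched as well. The full element TGACGTCA, the motif AAAGGTCA and the CArG box had no match in the 3 Nr4a windows. The motif GGGCGG, found in 32.7% of all windows, matched in each of them. The windows of Ccl3 and Xcl1, whose transcripts are described below, held neither motif, that of Ifng held 1 TGACG match and no EGR match, and the window read for Egr2, 1 of 5 listed, held neither. A match describes letters in a window and does not show that a factor binds there.

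Before the results, 1 DR member has to be set apart. It had 5407 UMIs, of which 3 came from the 10 NK marker genes fixed for this report, and it entered the gate on 1 UMI of Ncr1. It had no UMI of Ccl3, Ccl4, Xcl1 or the granule gene Nkg7. It held all 32 UMIs of the blood stem cell and erythroid factor Tal1 found in the DR members, 99 of 114 UMIs of Klf10, 32 of 40 of Jun, 124 of 234 of Junb, 144 of 294 of Klf2 and 22 of 25 of Socs3. The cell goes against the NK label. It stays in the values below because the rule includes it, and values that move by over 1.5 times without it are given both ways. The other 83 members had at least 5 of the 10 NK markers, with a median of 10 in either library. None of the 10 NK markers was called different between members and other gated cells in both libraries, but 1 was called lower in the DR library alone. Their summed share was lower in members. The medians per 10000 UMIs were 233 against 306 in the control and 168 against 276 in the DR library. The granzyme gene Gzma, 1 of the 10, had a lower quartile of 1.01 per 10000 UMIs in DR members against 60.5 in the other DR cells. The DR members included cells with 16, 23 and 6 UMIs of the ILC1 marker Il7r. These cells had at most 1 UMI of Gzma and no UMI of the NK markers Prf1 and Eomes. Detection of 5 of the 10 markers thus does not settle that every other member is an NK cell.

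The control library held 44526828 UMIs and the DR library 42134212. Members had more UMIs than other gated cells, with medians of 9694.5 against 7251 in the control and 10446 against 5619 in the DR library. Members held 598106 UMIs in all in the control and 278243 in the DR library, which sets the precision of the levels below. No member shared its barcode sequence with a cell of the other library, and the doublet rule called no member. T cell markers reached into the members: at least 2 of 10 T cell markers were detected in 18 of 56 control members (32.1%) against 18.3% of the other cells, and in 17 of 28 DR members (60.7%) against 20.3%. The summed T marker level was 425 CPM (UMIs per 1000000 UMIs of the summed cells) in control members and 395 in the other cells, and 633 against 398 in the DR library. Cd3e, the defining marker used in the gate, is 0 by the rule, and Cd4, Cd8a and Cd8b1 were under the floor of 20 CPM. Of the 5 T cell markers above the floor, Cd3d and Trac were higher in members in both libraries; Cd3d was found in 11 control and 6 DR members, and Trac in 8 and 9. No T cell marker was called in both libraries without the top member cell of each gene, and 1 was with UMI weighting. Under the stricter gate 1 was, but that gate asks for 0 UMIs of Trac, so Trac could not be called there. ILC1 markers, of the tissue-resident relatives of NK cells, summed to 88.6 CPM in control members against 219 in the other cells, and to 471 against 309 in the DR library. At least 2 ILC1 markers were detected in 12.5% of control members against 10.6% of the other cells, and in 32.1% of DR members against 12.8%. B cell markers summed to 135 CPM in control members against 206 in the other cells, and to 392 against 296 in the DR library. At least 2 B cell markers were detected in 12.5% of control members against 13.6% of the other cells, and in 39.3% of DR members against 21.3%. Erythroid and platelet markers had no UMI in any member. The part of these cells and of depth in the results was not tested.

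Members made up 1.09% of gated NK cells in the control library (interval 0.826 to 1.42%) and 0.572% in the DR library (0.380 to 0.825%). All intervals are exact 95% intervals and cover counting error only. Most gated cells had no UMI of the 6 genes: 4427 cells in the control and 4423 in the DR library. Exactly 1 gene was detected in 560 and 394 cells, and exactly 2, just outside the rule, in 87 and 51 cells. Exactly 3, just inside it, were detected in 17 and 14 cells, and all 6 in 9 and 3 cells. Detection depends on depth, and control cells had more UMIs. With every cell reduced to 2000 UMIs, leaving out 172 control and 88 DR cells with fewer, the expected share with at least 3 genes was 0.447% in the control and 0.182% in the DR library. The ratio of the control to the DR share was 1.90 for these cells at full depth and 2.46 at the reduced depth, where only 22.2 and 8.73 cells were expected. Cells with UMIs of both Cd79a and Ms4a1, B cells that are known to transcribe some of these genes, reached at least 3 of the 6 in 1 of 93 control and 1 of 394 DR cells, at median depths of 8194 and 6629.5 UMIs.

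Nr4a and Egr transcripts were often found in the same member cells. At least 1 Nr4a and at least 1 Egr gene were found together in 51 of 56 control members and 27 of 28 DR members. The rule largely fixes this count. Each family has 3 genes, so members with at least 4 of the 6, 39 in the control and 14 in the DR library, must hold both. All 3 Nr4a genes without any Egr gene were found in 5 and 1 members, and all 3 Egr genes without any Nr4a gene in none. Because the rule itself asks for several genes, each gene was also read in cells picked by the others. In 44 control cells with at least 3 of the other 5 genes, Nr4a1 was detected in 79.5%, against 2.08% of the remaining gated cells. Egr3 was detected in 72.0% of 50 control cells picked without it and in 68.4% of 19 such DR cells, against 0.945% and 0.759% of the remaining cells. Among 69 control cells with at least 2 Nr4a genes, Egr1 was detected in 39.1%, and among 38 such DR cells in 31.6%, against 2.51% of the remaining DR cells. Rates were lower for other genes. In DR cells picked without them, Nr4a2 was detected in 40.9% of 22 cells and Egr2 in 23.1% of 26. Egr2 was detected in 10.5% of the 38 DR cells with at least 2 Nr4a genes. The cells picked by each left-out gene overlap largely, and cells with more UMIs are favoured by every such pick.

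Levels of the 6 genes differed by cell within the members. Nr4a1 ranged from 0 to 44 UMIs per control member with a median of 2, and from 0 to 10 with a median of 1.5 in the DR members. Egr1 had the highest summed level in control members, 600.2 CPM, and ranged from 0 to 40 UMIs. Egr3 had the highest in DR members, 471 CPM, of which 40 of 131 UMIs came from 1 cell. Egr2 was the sparsest, with UMIs in 34 of 56 control and 8 of 28 DR members.

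**Figure D1:**
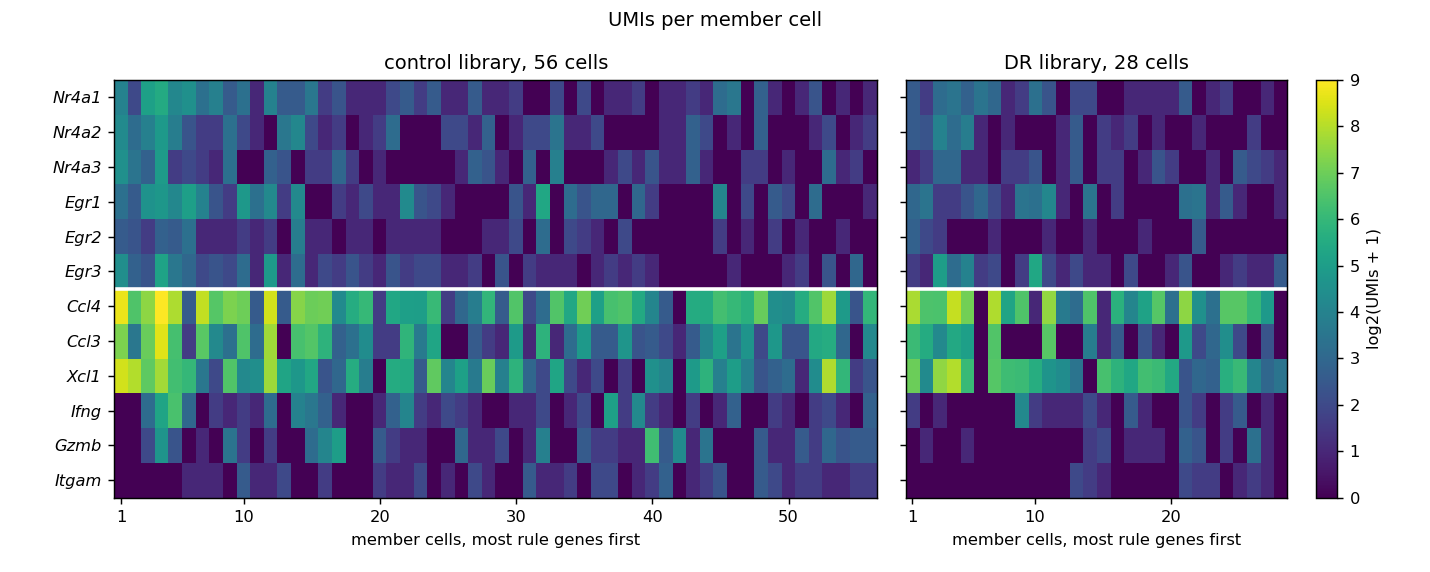
Each column is 1 member cell, ordered from the most to the fewest rule genes detected; rows are genes and colour is log2(UMIs + 1). The upper 6 rows chose the cells; below the white line, Ccl4 and Xcl1 are present in nearly all members while Gzmb and Itgam are at 0 in most DR members.

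Against the other gated cells, members had more transcripts of chemokines, cytokines, NF-kB pathway genes and AP-1 genes, and fewer of the genes of mature, circulating NK cells. A gene was called when its CPM differed by at least 1.5-fold, with an interval of the ratio that left out 1, in the same direction in both libraries, among 5801 genes that averaged 20 CPM or more, other than the 6 rule genes. Of these, 119 (2.05%) were higher and 73 (1.26%) were lower in members. The rule used this contrast, and nothing is read from these counts beyond their size. In single libraries, 198 genes (3.41%) were higher and 272 (4.69%) lower in control members, and 322 (5.55%) were higher and 417 (7.19%) lower in DR members. The median log2 ratio over all these genes was -0.08 in the control and -0.09 in the DR library. Of the 119 higher genes, 66 were still called without the member cell that holds most UMIs of each gene, and 51 under a stricter gate. When the other cells were weighted to the members' UMI distribution, 92 of the 119 higher and 27 of the 73 lower genes were still called.

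Several secreted factors differed widely between members and other cells. Ccl4, which encodes a chemokine for monocytes and T cells, was found in 55 of 56 control members, with 0 to 738 UMIs per cell and a median of 49, and in 26 of 28 DR members, with 0 to 298 and a median of 58.5. Its level was 8359.7 CPM in control members and 246.5 in the other cells, 33.9-fold higher, and 7979 against 213 CPM in the DR library, 37.5-fold higher. Single cells overlapped: 14 other control cells and 18 other DR cells were at or above the members' median share of Ccl4 UMIs. For Ccl3 the other cells at or above the members' median numbered 42 in the control and 268 in the DR library, and for Xcl1 269 and 37. For Ifng, described below, they numbered 1023 (20.2%) and 1112 (22.8%). In B cells, Ccl4 was found in 2 of 93 control and 10 of 394 DR cells. Ccl3, its close relative, was 30.9-fold higher in control members at 3320.5 CPM and 22.3-fold higher in DR members at 1765 CPM. It was found in 52 of 56 control members and in 18 of 28 DR members. Xcl1, the chemokine that attracts cross-presenting dendritic cells, was 11.8-fold higher in control members at 4380.5 CPM and 14.1-fold higher in DR members at 5452 CPM. Ifng, which encodes interferon gamma, was 9.13-fold higher in control members and 3.20-fold higher in DR members, and 16 of 56 control and 12 of 28 DR members had no UMI of it. Csf2, which encodes the growth factor GM-CSF, was 6.91-fold and 12.6-fold higher, from UMIs in only 13 and 7 members. Of 14 cytokine and chemokine genes listed, 7 were above the level floor and 5 of these were higher in both libraries, against 2.05% of all genes; Ccl5, abundant in all NK cells, had log2 ratios of -0.19 and -0.31.

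The chemokine levels went up with the number of rule genes detected, also outside the members. In control cells with 0, 1, 2, 3 and 4 to 6 genes, Ccl4 stood at 202, 426, 822, 4536 and 10255 CPM. In the DR library the same classes had 149.9, 587, 1856, 5195 and 10702.5 CPM. Xcl1 followed the same order in both libraries, from 298 to 5224 CPM in control cells and from 314 to 6997 CPM in DR cells. Ccl3 broke the order once, with 615 CPM at 2 genes and 559.5 CPM at 3 genes in the DR library, where the intervals overlapped. In control cells the step from 2 to 3 genes, where the rule draws its line, was the largest of the 4 steps by ratio for Ccl4, from 822 to 4536 CPM, and for Ccl3, from 335.5 to 1256 CPM. It was not the largest elsewhere. For Ccl4 in DR cells the largest step was from 0 to 1 gene, from 149.9 to 587 CPM. Xcl1 also had its largest step there, from 298 to 680 CPM in control and from 314 to 882 CPM in DR cells. For Ccl3 in DR cells it was the last step, from 559.5 to 2944 CPM. These levels are sums over cells, and 1 control member held 386 of the 1737 Ccl3 UMIs of its class. Cell by cell within members, rank correlations (Spearman) with the share of the 6 genes were weaker in the DR library. They were 0.62 for Ccl4, 0.51 for Ccl3 and 0.25 for Xcl1 in control members. In DR members they were 0.30, 0.29 and -0.06. Cells with exactly 2 genes also had more UMIs than the other gated cells as a whole, with medians of 10115 against 7251 in the control and 6781 against 5619 in the DR library, and the part of depth was not tested.

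**Figure D2:**
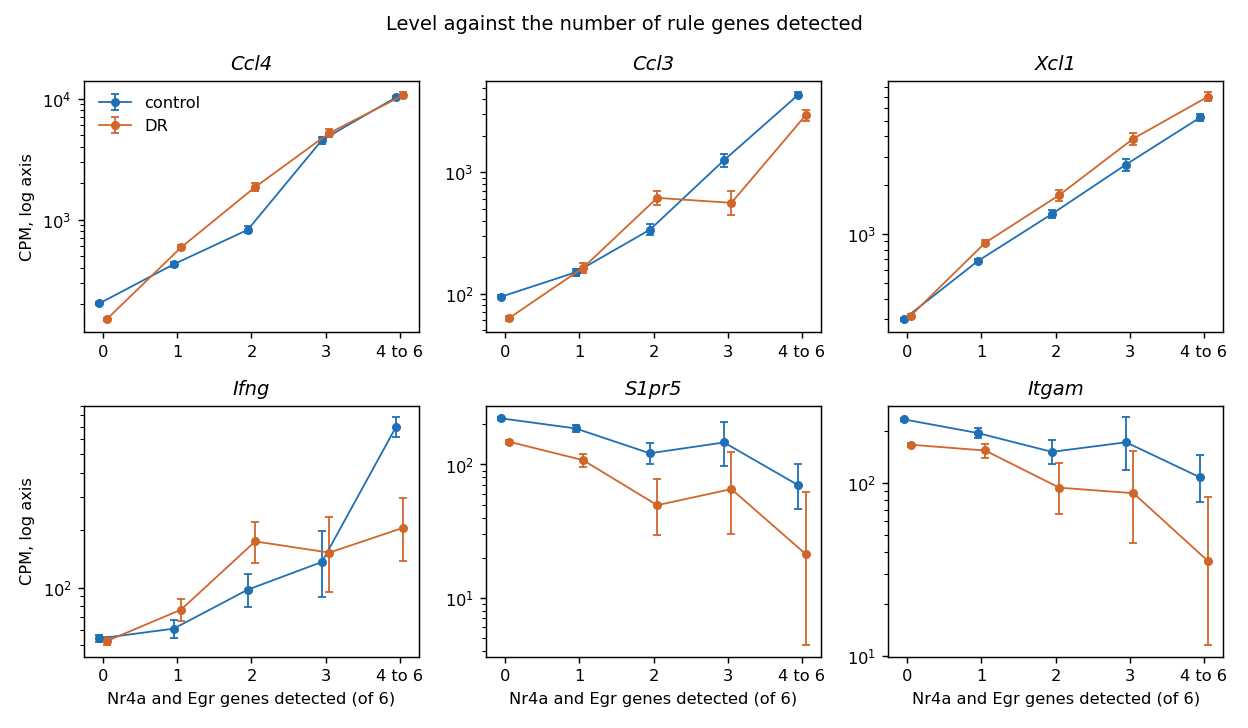
CPM on a log axis against the number of rule genes detected, per library, with 95% counting intervals. Ccl4 rises from 202 to 10255 CPM in control and from 149.9 to 10702.5 CPM in DR cells, while S1pr5 goes from 222 to 70.0 and from 148 to 21.3 CPM.

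Most NF-kB pathway genes, and part of the AP-1 and MAP kinase feedback genes, were higher as well, while most NFAT and calcineurin genes were not called. Of 14 NF-kB pathway genes, all above the floor, 12 were higher in both libraries, against 2.05% of all genes. The list median log2 ratio was 1.45 in the control and 1.15 in the DR library. Nfkbid, which encodes a nuclear regulator of NF-kB, was 8.30-fold and 7.68-fold higher. Rel, which encodes the c-Rel subunit, was 3.74-fold higher in control and 6.14-fold higher in DR members, and Nfkbia, which encodes the inhibitor IkB alpha, 3.35-fold and 2.41-fold. Under the stricter gate 6 of the 14 were still called. Of 12 AP-1 and immediate early genes above the floor, 6 were higher in both libraries, against 2.05% of all genes. Fos was 76.3-fold higher in control members, but from 18 of 56 cells with 57 of 169 UMIs in 1 cell, and 7.67-fold higher in DR members, from 5 of 28 cells. Myc, which encodes a growth-promoting transcription factor, was 4.46-fold and 7.99-fold higher. Junb was 2.41-fold and 2.83-fold higher and Jun 2.92-fold and 8.06-fold; without the DR member that holds the Tal1 UMIs, the DR log2 ratios were 0.44 for Junb and 0.72 for Jun, and 4 of 12 genes of the list were called. Without the top cell of each gene 3 were. Of 9 MAP kinase and calcium feedback genes above the floor, Spry2, Dusp5, Dusp2 and Nab2 were higher in both libraries, against 2.05% of all genes. The list median log2 ratio was 0.48 in the control and 0.18 in the DR library. Nab2 encodes a corepressor of the Egr factors; it was 2.83-fold and 3.53-fold higher. Of 8 NFAT and calcineurin genes, Nfatc1 alone was called in both libraries, with log2 ratios of 0.85 and 0.84. The list medians were -0.09 in the control and -0.18 in the DR library.

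Activation antigens were higher in part. Of 5 such genes above the floor, Cd69, Crtam, Cd160 and Tnfrsf9 were higher in both libraries, against 2.05% of all genes. With UMI weighting 2 of the 5 were. Cd69, an early surface marker of lymphocyte activation that holds cells in tissue, was 6.71-fold higher in control members and 3.40-fold in DR members, with UMIs in 31 of 56 and 16 of 28 cells. Crtam, which encodes an adhesion receptor of activated NK and CD8 T cells, was 4.27-fold and 6.75-fold higher. Among transcription factors of activated lymphocytes, Id3, Batf3, Bhlhe40 and Tox were higher in both libraries, and Prdm1, which encodes the terminal differentiation factor Blimp-1, was lower. Its log2 ratio was -1.16 in the control library, from 16 member UMIs, and -2.91 (interval -5.96 to -1.05) in the DR library, from 2. Batf3 had UMIs in only 4 control members and Id3 in 5. The list had 1 gene called higher in both libraries under the stricter gate, and 2 with UMI weighting, without the top cell of each gene, or with the mean over cells. The highest ranked other genes included Tagap, a gene of activated lymphocytes, at 8.65-fold and 8.24-fold. They also included the survival genes Bcl2a1b, at 6.58-fold and 7.90-fold, and Bcl2a1d, near-identical copies whose reads may be split. Tnfsf14, which encodes the ligand LIGHT, was 6.88-fold and 8.66-fold higher, and Kdm6b, which encodes a histone demethylase, 6.31-fold and 4.91-fold.

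Few receptor and adaptor genes were called. Of 14 signalling adaptor genes none was called in both libraries, and of 10 activating receptor genes only Slamf7, at 1.90-fold and 3.09-fold. Of 9 inhibitory receptor genes, 1 was higher and 1 lower in both libraries, against 2.05% and 1.26% of all genes. Lilrb4a, which encodes an inhibitory receptor, was 4.88-fold and 7.47-fold higher, and Klrg1, an inhibitory receptor of mature cells, was lower. Of 8 heat shock genes none was called in both libraries. In the DR library alone 2 of the 8 were higher in members, with a list median log2 ratio of 0.42, against 5.55% of all genes. Hspa8 had log2 ratios of 0.13 and 0.60 and Dnaja1 of 0.21 and 0.60. The part of tissue handling and sorting in the levels of these and of the immediate early genes was not tested. None of 11 ribosome biogenesis genes above the floor was called in both libraries. In the DR library alone 4 of the 11 were higher in members, with a list median of 0.45, against 5.55% of all genes. None of 8 cell cycle genes was called in both libraries, but 4 of the 8 were lower in both with the other cells weighted by UMIs, and 2 without the top cell of each gene.

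Among cytotoxic genes, Srgn, which encodes the granule proteoglycan serglycin, was 2.14-fold and 2.93-fold higher, and Gzmb, which encodes granzyme B, was lower. Gzmb stood at 489.9 CPM in control members against 749 in the other cells, and at 115 against 543 CPM in the DR library. Per cell it ranged from 0 to 75 UMIs in control members, with UMIs in 39 of 56, and from 0 to 9 in DR members, with UMIs in 12 of 28. Gzmb was no longer called in both libraries with the other cells weighted by UMIs, at log2 ratios of -0.32 and -1.80, or under the stricter gate, at -0.48 and -2.48. Prf1, which encodes perforin, had log2 ratios of 0.18 and -0.25 and was not called. Gzma had a median of 93.7 per 10000 UMIs in control members against 149 in the other cells, and of 32.6 against 122 in the DR library.

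Genes of mature NK cells were lower. Of 11 genes listed, all above the floor, 8 were lower in both libraries, against 1.26% of all genes, 1 was higher, and the median log2 ratio was -1.02 in the control and -1.42 in the DR library. S1pr5, the sphingosine phosphate receptor with which NK cells leave bone marrow and lymph nodes, stood at 95.3 CPM in control members against 215 in the other cells and at 43.1 against 143 CPM in the DR library. Cma1, which encodes a mast cell type chymase also transcribed in mature NK cells, was 2.71-fold and 2.88-fold lower. Ly6c2 was 2.17-fold and 2.97-fold lower, and 53 of its 151 control UMIs came from 1 member. Klrg1 was 2.03-fold lower in control and 2.08-fold lower in DR members, where 2 of 28 cells had UMIs. Itgam, which encodes CD11b, was 1.75-fold and 2.68-fold lower. Cx3cr1, which encodes the fractalkine receptor, was 2.90-fold lower in control members and had no UMI in DR members, at least 1.82-fold lower when 3 counts over the group are taken as the floor. Tbx21 and Eomes, which encode the 2 lineage factors T-bet and Eomesodermin, were not called, with log2 ratios of 0.20 and 0.07 for Tbx21 and 0.20 and -0.05 for Eomes. Irf8 was higher, at log2 ratios of 0.71 and 0.98. With the other cells weighted to the members' UMI distribution, 4 of the 11 were still called lower, and under the stricter gate 5 were.

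Genes of immature NK cells leaned the other way. Of 10 listed, Cd27, Kit and Tcf7 were higher in both libraries, against 2.05% of all genes, and none was lower in both. None of the 3 was called with the other cells weighted by UMIs or without the top cell of each gene. Cd27, a receptor lost at the last stage of NK maturation, stood at 166 CPM in control members against 92.1 in the other cells, and at 201 against 131 CPM in the DR library. At 2000 UMIs per cell, Cd27 was detected in 30.9% of control members and 14.7% of the other cells, and in 32.1% and 19.7% in the DR library. Itgam was detected in 27.3% and 35.3% in the control and in 14.3% and 28.5% in the DR library, and the members' intervals took in the values of the other cells, as did the interval for Cd27 in DR members. B cells, which should lack Itgam, had it in 1.19% and 0.518% at this depth. At full depth Cd27 was detected in 69.6% and 39.1% of control cells and in 60.7% and 44.7% of DR cells. The corresponding full-depth values for Itgam were 64.3% and 67.5%, and 32.1% and 53.6%.

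Homing and hormone-response genes were lower in small numbers. Of 11 homing genes above the floor, S1pr1, S1pr5 and Cx3cr1 were lower in both libraries, against 1.26% of all genes. Under the stricter gate 1 was. Klf2, the factor that maintains S1pr1 transcription, had log2 ratios of -1.01 and -0.23; without the DR member that holds the Tal1 UMIs the DR value was -1.17, which is then called. Of 6 glucocorticoid-response genes above the floor, Tsc22d3, which encodes GILZ, and Sgk1 were lower in both libraries, against 1.26% of all genes. Tsc22d3 had 39 UMIs in 22 of 56 control members and 20 UMIs in 12 of 28 DR members, with log2 ratios of -1.21 and -1.69. Among genes outside the lists, Kcnj8, Gpr160, S1pr4, S100a6, Arl4c, Rap2b and Fgl2 ranked among the 12 lowest in both libraries. Kcnj8, which encodes a potassium channel subunit, was 3.87-fold and 5.00-fold lower. None of 6 type I interferon genes and none of 7 STAT5 target genes above the floor was called in both libraries.

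**Figure D3:**
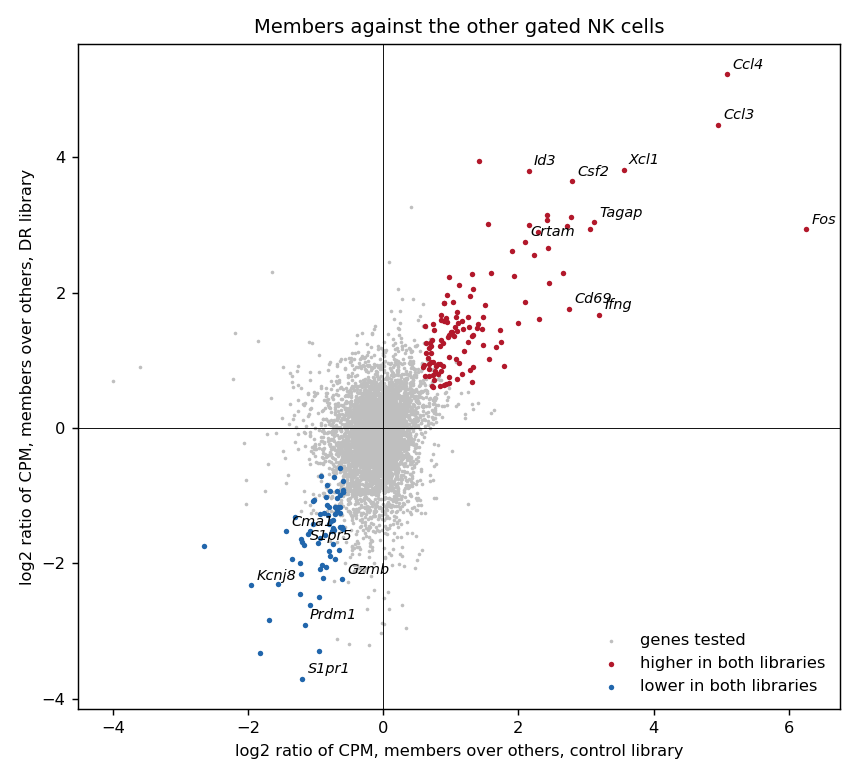
Each point is a gene of at least 20 CPM without the 6 rule genes, placed by its log2 ratio of members over other gated cells in the control (x) and DR (y) library. Red points are the genes called higher and blue points those called lower in both libraries; genes at 0 UMIs in the members of a library are not drawn.

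**Figure D4:**
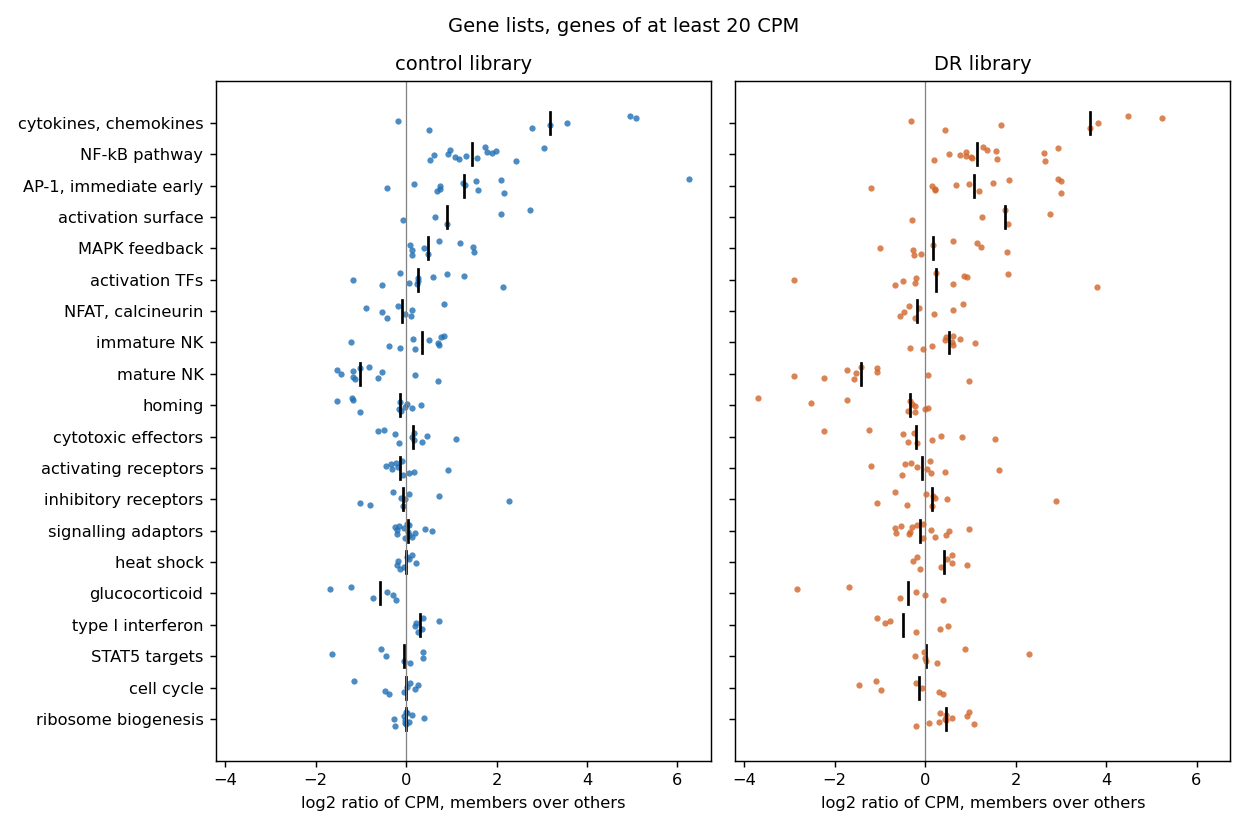
Log2 ratios of members over other gated cells by gene list, with 1 point per gene above the floor and a black bar at the list median. The medians of the cytokine list are 3.19 and 3.65 and those of the mature NK list are -1.02 and -1.42; genes at 0 UMIs in members enter the median at their bound and are not drawn.

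Within the members, the DR library was compared with the control library, with the other gated cells of the same libraries beside it. A gene was called when it was at least 25% higher or 20% lower, with an interval that left out 1. Of 5649 genes at 20 CPM or more, 316 (5.59%) were higher and 425 (7.52%) were lower in DR members, and in the other gated cells 192 (3.26%) of 5889 were higher and 456 (7.74%) were lower. Single cells weighed on these counts: 197 genes were higher without the top cell of each gene, and 195 of the 316 were among them. The values below are differences between 2 sets of cells from 2 libraries.

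The 6 rule genes chose the members, so their levels within members are given as a description. The log2 ratio of DR over control was -0.71 for Nr4a1, -0.64 for Nr4a2, -0.54 for Nr4a3, -0.58 for Egr1 and -1.05 for Egr2. It was 0.49 for Egr3, but 0.27 without the top cell in each library and -0.0458 under the stricter gate. In the other gated cells Nr4a2 was called lower, at -0.57, and the other 5 were not called. Ccl4 had a log2 ratio of -0.07 in members and -0.21 in the other cells and was not called in either. Xcl1, at 0.32 and 0.05, was likewise not called. Ccl3 was lower in DR cells of both kinds, by -0.91 in members and -0.44 in the others. Ifng was lower in DR members by -1.51, with an interval of -1.97 to -1.07, and was 0.00 in the other cells. Per cell, Ifng reached 85 UMIs in control members and 18 in DR members, with a median of 1 in each. Fos was lower in DR members at -2.49 and higher in the other DR cells at 0.82. Cd69 had the values -0.53 and 0.45, in opposite directions. Whether the DR effect differs between members and other cells could not be tested with 1 library of each kind.

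Several cytotoxic and mature NK genes were lower in DR members. Over all genes tested, 7.52% were lower and 5.59% higher in DR members, and 7.74% and 3.26% in the other DR cells. The list counts here stand beside these shares. Of 10 cytotoxic genes, 5 were lower and 2 higher in DR members, and 2 were lower in the other DR cells. Gzmb had a log2 ratio of -2.09 in members and -0.47 in the others, and Gzma, which encodes granzyme A, of -0.99 and -0.24. Gzma was uneven over the DR members, with 0 to 159 UMIs per cell and quartiles of 1.01 and 92.2 per 10000 UMIs. In control members the quartiles were 52.8 and 140. Prf1 stood at -0.78 and -0.35. Its lower quartile was 1.15 per 10000 UMIs in DR members and 5.19 in control members. Eomes was detected in 19 of 28 DR members and 49 of 56 control members. Ratios of summed UMIs cannot tell fewer transcripts in each cell from a different mix of cells, and this was not tested. Of 10 mature NK genes tested, 6 were lower in DR members and none higher, with a median of -1.11, and in the other cells 8 of 11 were lower, with a median of -0.46. Itgam was at -1.08 and -0.46, S1pr5 at -1.14 and -0.59 and Klrg1 at -1.15 and -1.11. Of 10 immature NK genes, 5 were higher in DR members and 7 in the other DR cells. Il7r, which encodes the interleukin-7 receptor, was higher by 2.42 in members and 0.60 in the others, from UMIs in 8 of 28 DR members. Of 6 type I interferon genes, 3 were lower in DR members, among them Irf7 at -1.51, which encodes a regulator of interferon genes, and 3 of 5 were lower in the other cells.

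A smaller set was higher in DR members. Cd160, which encodes a receptor of NK cells that binds HVEM, stood at 328 CPM in control members and at 776 CPM in those under DR, a log2 ratio of 1.24 against 0.30 in the other cells. It was detected in 35 of 56 control and 21 of 28 DR members, with medians of 1 and 7.5 UMIs. Id3, which encodes an inhibitor of E proteins, was higher by 1.77, from 5 of 56 control and 13 of 28 DR members, and stood at 0.11 in the other cells. Myc was at 0.95, Rel at 0.62, Crtam at 0.60 and Srgn at 0.52, each called in members and not in the other cells. Several of these turned with the processing. With the rule applied after thinning to 2000 UMIs, Myc was at -0.17, Crtam at -0.48 and Id3 at -0.20. Under the stricter gate Rel was at -0.11. Of 11 ribosome biogenesis genes, Nolc1, Npm1, Nop56 and Mat2a were higher in DR members and none in the other cells. Over all genes these shares were 5.59% and 3.26%. Jun, Klf10 and Socs3 had log2 ratios of 1.78, 3.29 and 4.75, and without the DR member that holds the Tal1 UMIs these were -0.51, 0.40 and 1.72. At the other end, 1 control member held 117 of 119 UMIs of the histone gene Hist1h1b, which had none in DR members. Klf2 was at 0.54 in members, and at -0.40 without the DR member that holds the Tal1 UMIs.

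**Figure D5:**
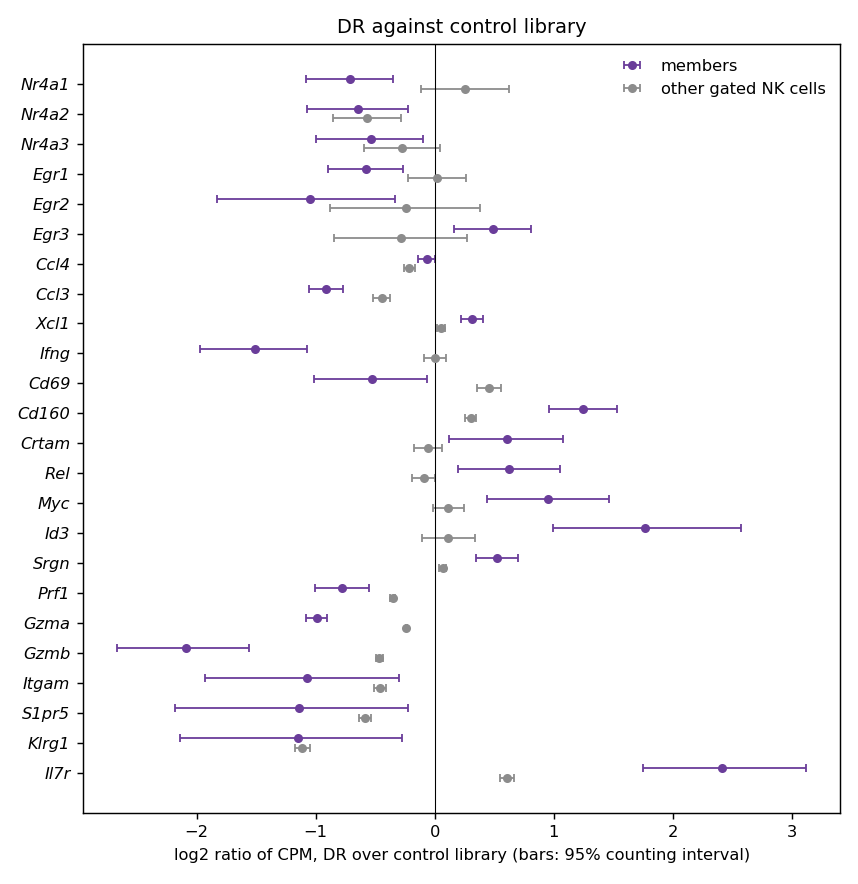
Log2 ratio of CPM, DR over control library, for named genes in members (purple) and in the other gated NK cells (grey), with 95% counting intervals. Ifng lies at -1.51 in members and 0.00 in the others, Gzmb at -2.09 and -0.47, and Cd160 at 1.24 and 0.30.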

How the data were processed

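The deposited values were UMI counts per gene and cell barcode, whole numbers that were not normalized, as Cell Ranger wrote them per the file headers. The headers name Cell Ranger 5.0.1 and the submitters' processing notes name 2.1.1 and the build mm10; the conflict was not settled. Members and gene lists were chosen with earlier results of these data known. No droplets without cells were used, so free RNA was not subtracted.

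Counts of the cells of a class were summed per library and given as CPM of all their UMIs. Intervals are at 95%: exact Poisson for CPM, exact Clopper-Pearson for shares and, for ratios, the exact binomial interval given the total; they were checked on simulated data. UMIs of cells are not independent draws, so these cover counting error only. Expected shares at 2000 UMIs came from the hypergeometric probability of detection in each cell; shares of single genes at 2000 UMIs came from 1 random draw. Scrublet (scanpy 1.11.5) set no usable threshold, so its top scores, at a share that grows with the cell load, were called; doublets were kept except in an alternative. A stricter gate asked also for 0 UMIs of Il7r, Cxcr6, Tmem176a, Trac, Cd8b1, Cd79b and Lyz2. Promoters came from the RefSeq table of GRCm38.p6.

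Named genes were the rule genes and markers, the 12 ranked highest and 12 lowest in both libraries, the 6 highest and 6 lowest for DR, up to 5 of each of 20 lists and 9 marker lists, and fixed NK genes; not all are printed. Other named genes, and the DR member with the Tal1 UMIs, were chosen after their values were seen. Tools were Python 3.11.15, numpy 2.4.6 and scipy 1.17.1.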

Additional observations from a re-analysis of the deposited data

Results flagged for a closer look

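Of the named genes, 5 stood higher in members than in other gated cells in 1 library and lower in the other, and the difference between the libraries was not tested. They are among 9 of 5801 genes called in opposite directions. Tmem176a, an ILC1 marker here, had no UMI in control members, a log2 ratio of at most -2.08 with 3 counts as the floor, and stood at 1.23 in the DR library. Il7r was at -1.22 in the control and 0.60 in the DR library. Cd74, which encodes the MHC class II chaperone, was at -3.60 and 0.90, and H2-Aa, an MHC class II gene, at -1.86 and 1.29. Rtp4, an interferon-induced gene, was at 0.86 in the control library and had no UMI in DR members, a log2 ratio of at most -1.15 with the same floor.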

How the results depend on the processing

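No paired analysis was possible because each group had 1 library, and no replicate could be left out. The cause of the changes below was not tested. Members made up 2.79% of control and 1.61% of DR cells at a minimum of 2 genes (46 genes lower in both libraries), and 0.760% and 0.286% at a minimum of 4. With the rule applied after thinning to 2000 UMIs the shares were 0.403% and 0.229%, 39 genes were lower, and 195 higher and 210 lower in DR members. The stricter gate left a DR share of 0.360% with 56 genes higher and 37 lower, and the rule without Nr4a3 a DR share of 0.368%. Genes lower in both libraries numbered 48 with median-of-ratios scaling and 40 with UMI weighting. Without the top cell of each gene, 66 were higher and 179 lower, and 197 were higher in DR members.

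Directions turned as follows (log2 ratios). At a minimum of 2 genes, Cd69 in DR over control members was 0.0476, and members over others in the control library were 0.32 for Il7r, 0.73 for Cd74 and 1.18 for H2-Aa. With the thinned rule, DR over control members was -0.17 for Tnfsf14, -0.17 for Myc, -0.42 for Jun, -0.48 for Crtam, -0.20 for Id3 and 0.80 for Klrg1, while members over others were -0.20 for Cd27 and -0.16 for Tcf7 in the DR library and -0.0334 for Rtp4 in the control library. Under the stricter gate, DR over control was -0.0458 for Egr3 and -0.11 for Rel, and members over others were -1.04 for Fosl2 and -1.37 for Tcf7 in the DR library and -0.65 for Id3 and 0.21 for H2-Aa in the control library. With the rule without Egr3, Cd74 was -0.0538 and H2-Aa -0.0450 in the DR library. With at least 2 of the 3 Nr4a genes, the control values were -0.37 for Cd3d, 0.29 for Il7r, 0.47 for Cd74 and 1.48 for H2-Aa, and with at least 2 of the 3 Egr genes Cd3d was -0.26 in the DR library. With UMI weighting Cd74 was -0.21 in the DR library. With at least 5 NK markers, DR over control was -0.51 for Jun and -0.40 for Klf2, and without the top cell -0.22 and -0.34, with Tmem176a at -0.15 in the DR library.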
